A study of Mus musculus with 8 samples.

Results

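Interferon signalling and response genes were examined in primary mouse embryonic fibroblasts that lack Cbx2. The members are the 72 genes, of 17441 in the authors' deposited comparison of knockout with control, whose symbols belong to the interferon receptors, the Jak kinases, the Stat and Irf transcription factors, the RNA sensors Ddx58 and Ifih1, and families of interferon-induced effectors (Ifit, Oas, Mx, Gbp, Ifi, Parp9, Parp12, Parp14, Isg15, Usp18, Rsad2, Bst2, Xaf1 and Eif2ak2). They were picked by their symbols, and the list was set with earlier results of these data known. Cbx2 encodes a chromodomain subunit of polycomb repressive complex 1, which keeps developmental genes silent. The knockout is a targeted deletion of Cbx2 (Cbx2-/-), and the control cells are wild type from litter mates. Embryos of both genotypes were taken at embryonic day 18, and the fibroblasts were grown for 2 passages with no interferon or other agent named in the labels. The RNA-seq has 2 wild-type and 2 knockout libraries. The sources do not tell whether each library stands for its own embryo, so p-values measure only the spread between these libraries, which may be technical.

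Interferons are secreted alarm proteins. Type I interferons bind the receptor made of Ifnar1 and Ifnar2, and interferon gamma binds the receptor made of Ifngr1 and Ifngr2. The kinases Jak1, Jak2 and Tyk2 then phosphorylate Stat proteins, and a complex that holds Stat2 and Irf9 switches on antiviral genes through a promoter element called the interferon-stimulated response element (ISRE). Stat dimers act through the gamma-activated site (GAS). Fibroblasts carry the whole receptor machinery and make interferon beta when they sense viral or misplaced nucleic acid.

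The element can be read in the promoters of the effector genes. Sequences of 250 bases before to 50 bases after the gene start were taken from RefSeq (GRCm38.p6), which matched 53 of the 72 members. An ISRE match was 2 copies of the letters GAAA with any 2 bases between them, searched on both strands. It stood in at least 1 such window of 24 of these 53 genes (45.3%), against 505 of 13621 genes of the table with a promoter (3.71%). The letters TTCNNNGAA, a GAS-like motif, stood in 13 of the 53 (24.5%) against 8.54% of all genes. Of 1210 ISRE matches over all promoters, 24 overlapped a GAS match. The stretches below show 1 ISRE match per gene, in capitals. They cover 1 Gbp gene that rose, its neighbour Gbp2b, the antiviral effectors Isg15, Ifit1 and Rsad2 and the signalling gene Stat2. The GAS-like match of Irf1 follows. Isg15 had 3 ISRE matches and Ifit1 had 2, and their further matches were left in lower case.
Gbp2 (chr3:142620579-142620638, plus strand): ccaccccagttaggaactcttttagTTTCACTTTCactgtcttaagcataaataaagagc
Gbp2b (chr3:142594685-142594744, plus strand): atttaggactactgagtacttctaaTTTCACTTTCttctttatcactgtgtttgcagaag
Isg15 (chr4:156200850-156200909, minus strand): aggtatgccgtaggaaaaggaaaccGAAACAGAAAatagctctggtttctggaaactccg
Ifit1 (chr19:34640779-34640838, plus strand): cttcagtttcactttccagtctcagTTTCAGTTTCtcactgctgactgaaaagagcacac
Rsad2 (chr12:26456538-26456597, minus strand): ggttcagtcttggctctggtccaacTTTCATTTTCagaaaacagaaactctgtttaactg
Stat2 (chr10:128270251-128270310, plus strand): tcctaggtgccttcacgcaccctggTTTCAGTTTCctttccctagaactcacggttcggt
Irf1 (chr11:53769899-53769957, plus strand): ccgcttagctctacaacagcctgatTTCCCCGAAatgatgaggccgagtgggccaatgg
The capitals begin 59 bases upstream of the start of Gbp2, 66 upstream of Isg15 and 85 upstream of Ifit1. A match describes the letters only and says nothing of whether a factor was bound.

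For each gene the authors' deposited table gives 1 normalised read value per genotype, a log2 fold change and a p from the authors' DESeq2 comparison. All levels, log2 fold changes and adjusted p-values below are from that table unless recovered reads are named. The values carry no SD, because each genotype has 1 value. An error was implied from each fold change and its p, and intervals of 95% rest on it. Fold changes of genes with few reads are pulled toward 0, and so are the 2 levels, whose ratio is that fold change. For the 38 members with a mean under 50, whole reads of each library could be recovered from the table's decimals. The libraries are called A and B within a genotype, and their labelled numbers are not known. For the other 34 members no value per library was available here. The values sum to 19428299 in wild type and 18910077 in knockout. Cbx2 itself stood at 347 in wild type against 29.0 in knockout (log2 fold change -3.58, authors' DESeq2 adjusted p 2.55e-44).

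Calls among the interferon genes were about as frequent as among all genes. Of the 72 genes, 6 passed an adjusted p of 0.05 (8.33%), against a background of 7.78% of all 17441 genes in the authors' deposited table. The effector genes Ifi202b, Gbp2 and Ifi30 rose, and the signalling genes Jak2, Stat3 and Stat6 fell. The 3 rises compare with a background of 3.48% of all genes and the 3 falls with 4.3%. At an unadjusted p under 0.05 there were 9 members, where the background was 14.6%. None of the 6 called changed 2-fold. The median log2 fold change of the 72 was -0.02, beside 0.00 over all genes, and 32 of the members lay above 0. All 6 calls fell among the 25 members whose mean reached the median of all genes (24.0%), where 11.8% of genes were called. The remaining 47 members had no call by the authors' DESeq2 test, and 1 of them had an unadjusted p under 0.05. None of the 38 members with a mean under 50 was called by DESeq2, where the background was 1.65%.

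**Figure D1:**
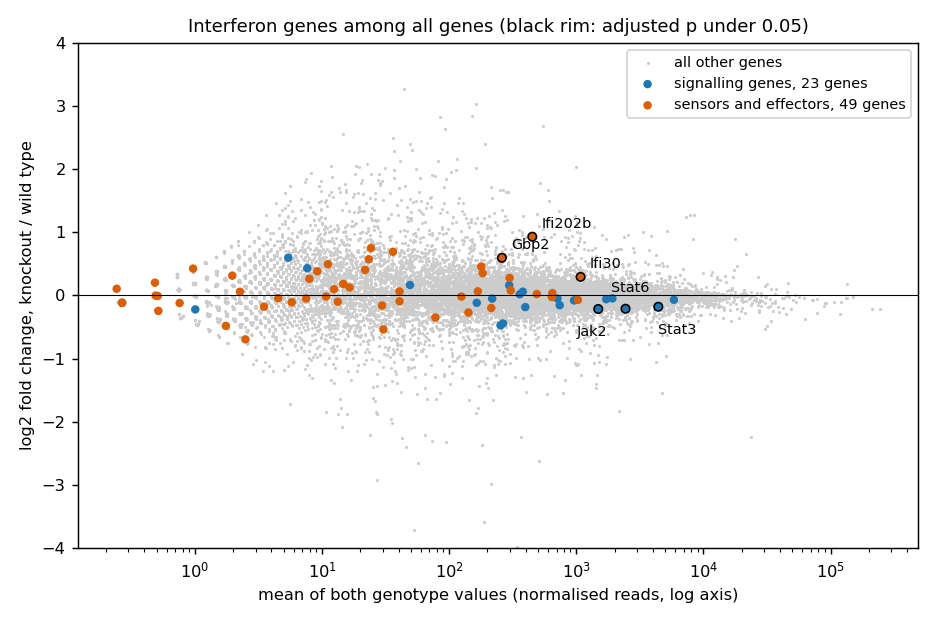
Log2 fold change of knockout over wild type against the mean of both genotype values (log axis), for all genes in grey and for 23 signalling and 49 sensor and effector genes in colour. The 6 called members carry a black rim and a name, and most members lie close to 0. The 6 genes with a change beyond 4 on the log2 scale lie outside the plot.

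The receptors were abundant and had nearly the same level in both genotypes. Ifnar1, the signalling chain of the type I receptor, stood at 1756 in wild type and at 1685 in knockout, by the authors' deposited table. Ifnar2, its high-affinity partner, had 986 and 934. Ifngr1, which binds interferon gamma, had 723 and 699, and its partner Ifngr2 had 1956 and 1892. The 4 log2 fold changes ran from -0.08 to -0.05 and none passed the test. Their 95% intervals reached from -0.26 at the lowest bound to 0.16 at the highest. Ifnar2, Il10rb (746 and 739), Ifnar1 and Ifngr2 lie close together on chromosome 16, and none of these 4 was called. Il10rb is shared by the receptors of interleukin 10 and of interferon lambda.

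The kinases and Stat factors held the falls. Jak2, which serves the interferon gamma receptor and many cytokine receptors, was 1599 and fell to 1377 in the authors' deposited table (log2 fold change -0.22, 95% interval -0.36 to -0.07, authors' DESeq2 adjusted p 0.0490). That call is lost when fold changes are centred on the median gene (adjusted p 0.0707 from the authors' DESeq2 errors). Jak1, the partner of every interferon receptor, had 6003 and 5723 (-0.07, not called), and Jak3, a kinase known from lymphocytes, had 172 and 158 (-0.12, not called). The related kinase Tyk2, which the naming rule leaves out, had 563 and 596 (0.08, not called). Stat3, the main factor of interleukin 6 and related cytokines, went from 4694 to 4143 (log2 fold change -0.18, 95% interval -0.28 to -0.08, authors' DESeq2 adjusted p 0.0121). Stat6, the factor of interleukins 4 and 13, went from 2617 to 2261 (-0.21, -0.34 to -0.08, authors' DESeq2 adjusted p 0.0172). Neither of these Stat genes is the carrier of the type I interferon signal.

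Stat2 and Irf9, which carry the type I interferon signal to the ISRE, did not pass the test. Stat2 had 306 in control cells and 225 without Cbx2, from the authors' deposited table (log2 fold change -0.44, authors' DESeq2 adjusted p 0.109). Irf9, the DNA-binding subunit of that complex, had 222 and 214 (-0.05, 95% interval -0.40 to 0.30). The interval of Irf9 holds 0, and that of Stat2 runs from -0.78 to -0.10. Stat5b (780.4 and 701) and Stat5a (372 and 387), which answer growth hormone and prolactin, lie beside Stat3 on chromosome 11 and were not called. Stat4, a lymphocyte gene, gave 2 and 1 recovered reads in the control libraries against 0 and 1.

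**Figure D2:**
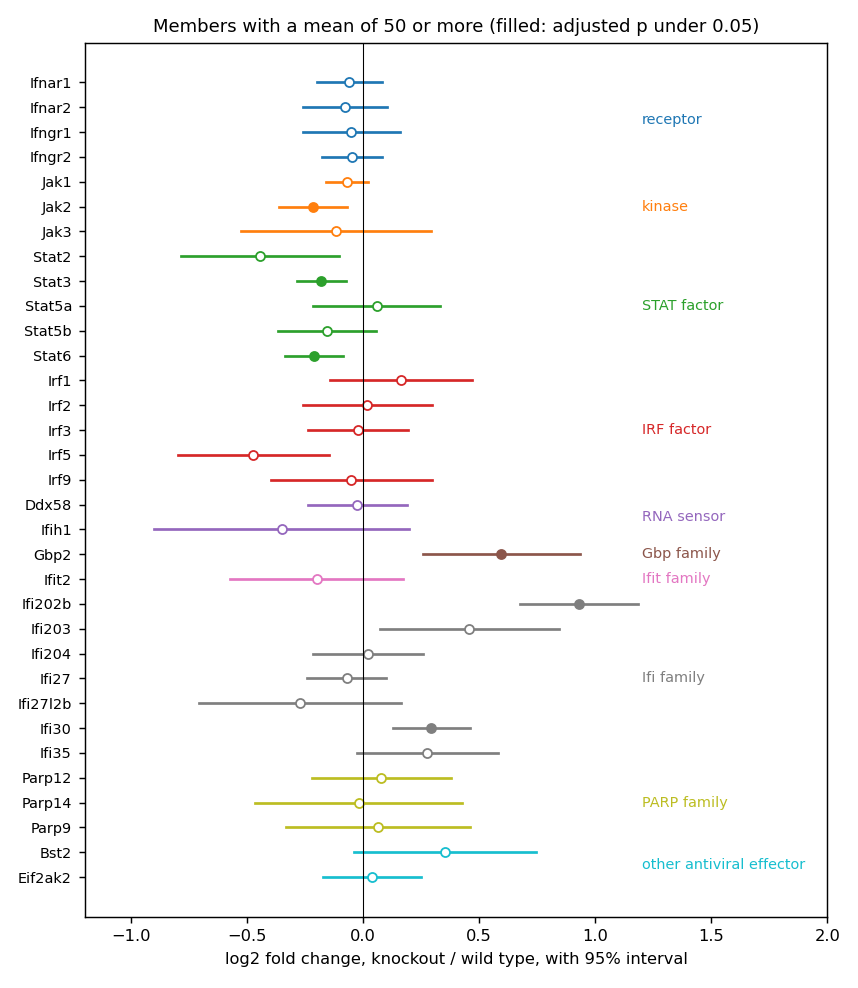
Log2 fold change of knockout over wild type with its implied 95% interval for 33 of the 34 members with a mean of 50 or more, coloured and ordered by role. Filled points passed an adjusted p of 0.05: Jak2, Stat3 and Stat6 lie left of 0 and Gbp2, Ifi202b and Ifi30 right of it.

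Irf factors showed no call. Irf3, the factor that first switches on the interferon beta gene, had 649 and 639 in the authors' deposited table (log2 fold change -0.02, 95% interval -0.24 to 0.19). Irf1 (280.0 and 313) and its antagonist Irf2 (356 and 361) had log2 fold changes of 0.16 and 0.02. Irf5, which drives inflammatory cytokines in myeloid cells, had 295 and 213 (-0.47, authors' DESeq2 adjusted p 0.0554). It passes when p-values are adjusted over genes that reach the median mean (adjusted p 0.0366). Irf7, which amplifies the type I response and is itself induced by interferon, gave 40 and 49 recovered reads in the control libraries against 59 and 49. The groups overlapped, and the ratio of reads per size factor was 1.14, with an exact 95% interval of 0.854 to 1.53 for counting error only. Irf8, a myeloid factor, had 7 and 4 reads against 13 and 7. Irf4, a lymphocyte factor, had 1 read in all 4 libraries together.

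Levels per kilobase of transcript spanned wide and overlapping ranges in both kinds of gene, from 0.0594 to 1133 in wild type for the signalling genes and from 0.0522 to 1040.2 for the sensors and effectors. In wild type, the authors' value divided by gene length was 1133 per kb for Jak1, 1039 for Stat3, 945 for Ifngr2, 723 for Ifnar2 and 688 for Stat6. Jak1, Stat3 and Ifngr2 ranked above 91% of all genes when the values per kb of both genotypes were added. Ifngr1 (340.3 per kb), Jak2 (316) and Irf3 (314) were lower among the signalling genes. The factors of the interferon-stimulated complex had less still, with 89.4 per kb for Irf9 and 69.5 for Stat2. Irf7, also counted as a signalling gene, had 25.3 per kb. Among effectors, Isg15 stood at 52.6 per kb, Oas1a at 9.58, Ifit1 at 3.51, Mx1 at 0.153 and Rsad2 at 0.0735. Other effector genes were as high as the receptors, with 1040.2 per kb for Ifi27 and 974 for Ifi30 in wild type. The spread between libraries of a genotype is not known for levels above a mean of 50, so neighbours in this order were not tested.

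The antiviral effectors Isg15, Usp18, Ifit1 and Ifit3 had few reads in both genotypes, and none was called by the authors' DESeq2 test. Isg15, a ubiquitin-like tag that interferon induces in nearly every cell, gave 39 and 38 recovered reads in control cells against 42 and 44 in knockout. Per size factor the highest wild-type library and the lowest knockout library were level, and the ratio was 1.05 (exact 95% interval 0.763 to 1.45, counting error only). Usp18, which removes that tag and damps receptor signalling, had 21 and 14 against 24 and 29 reads, a ratio of 1.42 (0.912 to 2.25). Ifit1, which binds foreign RNA caps, had 8 and 8 against 18 and 11 reads (ratio 1.70, 0.896 to 3.36), and Ifit3, its stabilising partner, had 8 and 6 against 11 and 12 (1.55, 0.762 to 3.25). Each of these intervals holds 1. Of the 6 Ifit members, 3 had log2 fold changes above 0 and 3 below, with a median of -0.03 (authors' deposited comparison). Ifit1 lies within the span of another Ifit gene, so that their reads may be mixed. Rsad2, the antiviral enzyme viperin, had 1 read in all 4 libraries together. Of the dynamin-like Mx GTPases, Mx1 had 1 and 0 against 0 and 1 and Mx2 had 5 and 3 against 5 and 1. Ifi44l had 1 read in all, while Ifi44 had 14 and 16 against 15 and 21. A count of 0 in a library allows up to 3 reads.

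Oas genes, which make oligoadenylates that activate RNA decay, had no call among 8 members by the authors' DESeq2 test. Of their log2 fold changes from the authors' deposited comparison, 7 lay above 0, where 8843 of all 17441 genes did, and they ran from -0.02 for Oas3 to 0.75 for Oas1a. Oas1a gave 14 and 18 recovered reads in control cells against 26 and 40, so that both knockout libraries lay above both wild-type ones. The ratio was 1.94 (exact 95% interval 1.25 to 3.06, counting error only), against an authors' DESeq2 adjusted p of 0.491 and a limma adjusted p of 0.0585 on the recovered reads. Oasl2, an Oas-like gene, had 16 and 18 against 36 and 24 reads (ratio 1.66, 1.07 to 2.61, limma adjusted p 0.159). Oas1b had 7 and 6 against 8 and 11 reads, a ratio of 1.37 (0.644 to 3.03). The reads of Oas1c (13 and 10 against 17 and 10), Oas3 (9 and 12 against 9 and 13) and Oasl1 (13 and 13 against 19 and 14) overlapped between the genotypes. Oas1g had 1 and 1 against 6 and 0, and Oas2 had 0 and 0 against 3 and 1. Apart from Oasl1 and Oasl2, which lie elsewhere on chromosome 5, these genes form a row of 6. The genes of the row resemble each other, so that reads could be divided between Oas1a and Oas1g.

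**Figure D3:**
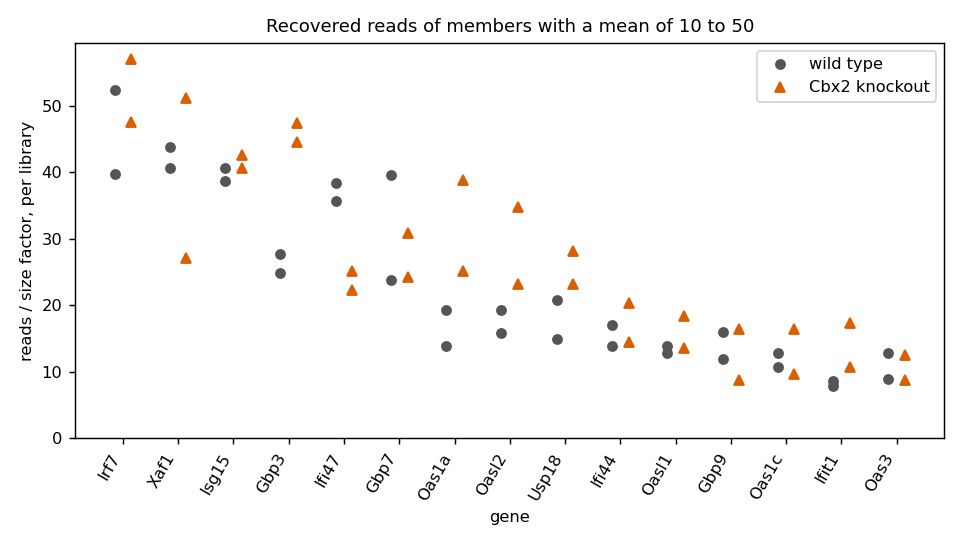
Recovered reads per library, divided by the library's size factor, for the 15 members with a mean of 10 to 50, with wild-type libraries as circles and Cbx2 knockout libraries as triangles. Gbp3, Oas1a, Oasl2 and Usp18 show both triangles above both circles, Ifi47 the reverse, and Irf7, Xaf1 and Oas3 overlap.

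Among these 15 members with a mean of 10 to 50, libraries of the genotypes did not overlap in 6 with knockout higher and in 1 with knockout lower. The 6 include Isg15, whose nearest libraries were level, at 40.624 reads per size factor in wild type and 40.625 in knockout. The background over 1719 recovered genes in that range was 35.4% higher and 21% lower, so the first share, 6 of 15, lies near the background. Over all 38 members with recovered reads the counts were 10 and 6, where the background was 22.1% higher and 16.3% lower of 6126 genes. By limma on log2 recovered reads, 1 of the 15 passed an adjusted p of 0.05, where the background was 15.9% of the 1719 genes. That member was Gbp3. The Ifi47 gene, an immunity-related GTPase, pointed the other way, with 36 and 36 reads in control cells against 26 and 23 (ratio 0.640, exact 95% interval 0.436 to 0.933, limma adjusted p 0.118). Xaf1, a pro-apoptotic gene, had 41 and 41 against 53 and 28, so the knockout libraries lay on both sides of the controls.

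The Gbp genes encode large GTPases that interferon gamma induces and that coat intracellular pathogens. Gbp2 (gene 14469, chromosome 3 from 142620663 to 142638008 in mm10) rose from 207 to 313 by the authors' deposited table, with a log2 fold change of 0.59, a 95% interval of 0.26 to 0.93 and an authors' DESeq2 adjusted p of 0.00991. Gbp3, nearby on the chromosome, gave 25 and 26 recovered reads in control cells against 49 and 46. The groups were well apart (ratio 1.75, exact 95% interval 1.23 to 2.51, counting error only). Gbp3 passed limma on recovered reads (adjusted p 0.0298) but not the authors' DESeq2 comparison (adjusted p 0.421). With any 1 library left out the limma adjusted p of Gbp3 was 0.135 to 0.214, where the number of calls over the 1719 genes also fell from 274 to between 0 and 62. Between Gbp3 and Gbp2 lies Gbp2b, which the naming rule leaves out and which was named after its values were seen. It went from 61.4 to 178 (log2 fold change 1.53, authors' DESeq2 adjusted p 1.66e-08). Gbp7 in the same row did not follow, with 24 and 37 against 32 and 25 reads, and Gbp5 had 1 read in each genotype. The group of 6 Gbp genes on chromosome 5 was low and level, with summed values of 20.4 and 19.2. There Gbp9 had 12 and 15 against 9 and 17 reads, Gbp6 had 3 and 6 against 6 and 3, and Gbp4, Gbp8, Gbp10 and Gbp11 had 1 to 3 reads in all. Reads could be divided between Gbp genes, since they are close relatives.

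The Ifi200 genes, or Pyhin family, encode DNA-binding sensors and regulators and form a single row on chromosome 1. Neighbours in that row moved in opposite directions. Ifi202b (gene 26388, chromosome 1 from 173962569 to 173982844 in mm10), which encodes the DNA-binding protein p202, an inhibitor of the Aim2 sensor, rose from 310.5 to 591 by the authors' deposited table. That is a log2 fold change of 0.93 (95% interval 0.68 to 1.18, authors' DESeq2 adjusted p 5.04e-11), and it was the largest change of the 72 members in size. Ifi203, beside it, had 151 and 207 (0.46, 0.07 to 0.84, adjusted p 0.180 by the authors' DESeq2 test). On the other side of Ifi203 lie Mnda and Mndal. RefSeq now names Mnda Ifi211, so under its present name it would be a member, and both were named here after their values were seen. By RefSeq name, Pyhin1 (Ifi209), Pydc3 (Ifi208), AI607873 (Ifi207) and BC094916 (Ifi214) would also be members, and none of them was called. Mnda went from 466 to 191 (log2 fold change -1.29, authors' DESeq2 adjusted p 4.13e-15) and Mndal from 98.8 to 46.2 (-1.10, adjusted p 0.00501 by the same DESeq2 test). Ifi204, the abundant sensor of the row, stayed within its error, at 486 and 493 (0.02, -0.22 to 0.26). Among low genes of the row, Ifi205 had 8 and 1 reads against 0 and 1, and Pyhin1 9 and 15 against 5 and 2. The sensor Aim2 had 3 and 1 against 6 and 9. Summed over the 11 genes of the row in the table, the values were 1562 in wild type and 1581 in knockout, a ratio of 1.01. The genes are close relatives, so that how reads were divided between them could not be checked here.

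**Figure D4:**
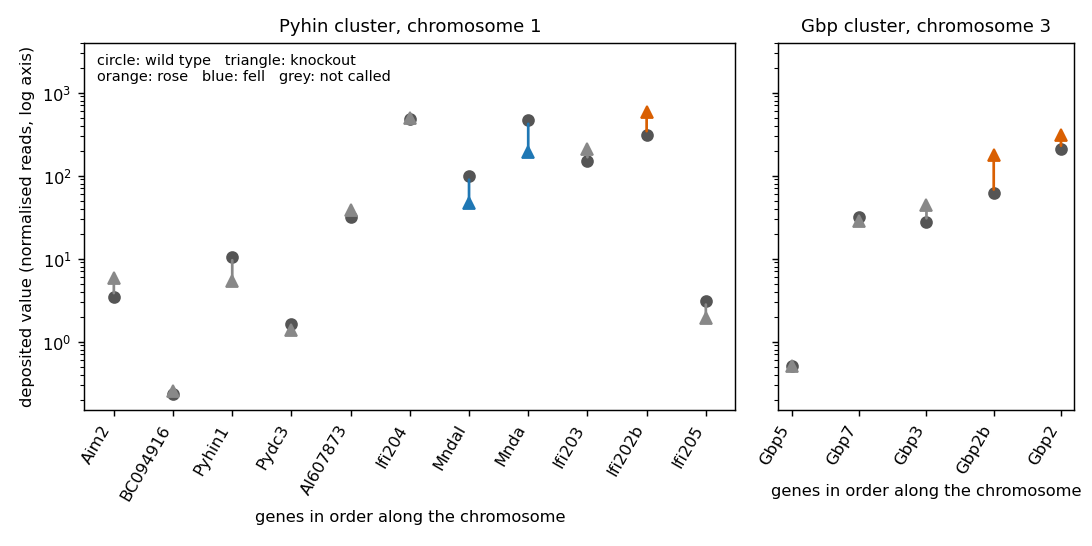
Values of the authors' deposited table in wild type (circles) and knockout (triangles), on a log axis, for the Pyhin genes of chromosome 1 and the Gbp genes of chromosome 3 in chromosomal order. Ifi202b rose while Mnda and Mndal fell in the same row, and Gbp2b and Gbp2 rose side by side.

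The third gene that rose was Ifi30, a lysosomal thiol reductase that helps present antigens and is abundant in myeloid cells. Its value rose from 971 to 1190.2 by the authors' deposited table (log2 fold change 0.29, 95% interval 0.13 to 0.46, authors' DESeq2 adjusted p 0.0104). Macrophage markers rose in the same comparison as Ifi30, Gbp2 and Gbp2b. Of 23 markers with a value, 14 rose and none fell by the authors' DESeq2 test, where the background of rises was 3.48% of all genes. Their median log2 fold change was 1.47, with 20 above 0 and 3 below. Those below were Cd53 (84.8 and 52.7), C1qb and Aif1, and none of them was called. Marker values summed to 890 in control cells and 2387 in the knockout, of which Lyz2 alone held 148 and 947. Recovered reads of the lysosomal protease gene Ctss were 12 and 12 against 87 and 90, and those of the myeloid factor gene Spi1 were 5 and 4 against 30 and 41. Csf1r, the receptor that macrophages need, was level at 245 and 257. Neither myeloid Irf gene passed the test, with 11 and 20 reads in all for Irf8 and values of 295 and 213 for Irf5. The part of macrophage RNA in the rises of Ifi30, Ifi202b, Gbp2 and Gbp2b was not tested, and fewer cells of a type cannot be told apart from less RNA per cell. Markers of lymphocytes were near 0, with 3 of 14 matched in the table and summed values of 10.3 and 13.0. Of the 14 fibroblast markers, all in the table, the summed values were 770903 and 668845. By the authors' DESeq2 test 10 of them fell and 1 rose, where the background was 4.3% and 3.48% of all genes. By direction alone, 11 lay below 0 and 3 above.

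Sensors and other effectors outside these families did not pass the test. Ddx58, the RNA sensor RIG-I, had 649 and 638 in the authors' deposited table (log2 fold change -0.03, 95% interval -0.24 to 0.19), and Ifih1, the sensor MDA5, had 87.4 and 68.5 (-0.35, -0.90 to 0.20). Eif2ak2, the kinase PKR that halts translation, had 640.1 and 657 (0.04, -0.17 to 0.25). Bst2, which tethers budding viruses, had 161 and 206 (0.35, -0.04 to 0.74). Parp12 (297 and 313), Parp9 (164 and 172) and Parp14 (126 and 124), ADP-ribosyltransferases of the response, had log2 fold changes of 0.08, 0.06 and -0.02. Ifit2, the 1 abundant gene of its family, had 229 and 199 (-0.20, -0.57 to 0.17). Ifi27 (1054 and 1003), Ifi27l2b (155 and 128) and Ifi35 (270.1 and 327) were not called, and Ifi27 lies within the span of Ifi27l2a, so that their reads may be mixed. Over the 34 members with a mean of 50 or more, the 95% interval lay within 1.5-fold of no change in 26 and within 2-fold in 33. Among the 38 members below that mean, 14 had an interval within 2-fold, on a scale that pulls low genes toward 0.

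Promoter motif and change were set side by side. Of the 24 members with an ISRE match, 1 rose and none fell in the authors' DESeq2 comparison. Their median log2 fold change was 0.03, against -0.05 in the 29 members without the match, of which 2 rose and 3 fell. Over the whole table, 8.71% of the 505 genes with an ISRE match were called, against 7.31% of those without, and their median log2 fold changes were 0.02 and 0.00.

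Other genes of the pathway, outside the naming rule, also had calls in both directions. Of interferon genes themselves, Ifng and Ifne gave 1 recovered read each, both in knockout libraries, and the other 11 looked for were not analysed here. Among 27 genes of nucleic acid sensing, 1 rose and none fell by the authors' DESeq2 test (3.70%, background 7.78%). It was Nlrx1, a mitochondrial regulator of antiviral signalling (170 and 250.2, log2 fold change 0.56). The DNA sensing pair Mb21d1 (cGAS, 182 and 166) and Tmem173 (STING, 1404 and 1269), and the kinase Tbk1 (596.0 and 596.1), were not called. Of the 6 low sensors with recovered reads, 5 had more in both knockout libraries, where the background was 22.1% of genes, and none was called. They include 3 that were named after their values were seen. Zbp1, a sensor of Z-form nucleic acid, had 17 and 15 against 35 and 34 reads, and Tlr7, an endosomal RNA sensor, had 2 and 4 against 14 and 11. Nlrc5, an activator of class I antigen genes, had 4 and 6 against 16 and 14. Of 21 partners and inhibitors of Jak-Stat signalling, 2 fell and 1 rose by the same test (14.3%, background 7.78%). Those that fell were Il6st (5402 to 3759, log2 fold change -0.52, authors' DESeq2 adjusted p 9.61e-20) and Osmr (3099 to 2206, -0.49, adjusted p 2.74e-14 by DESeq2), receptor chains of interleukin 6 and oncostatin M upstream of Stat3. The nuclear body gene Pml rose (2018 to 2409, 0.26). The feedback inhibitors Socs1 (142 and 147) and Socs3 (794 and 808), which interferon and Stat3 induce, were level.

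A longer list of 55 interferon-stimulated genes that the rule does not name had 5 rises and 4 falls in the authors' DESeq2 comparison (16.4%, background 7.78%), with a median log2 fold change of 0.05. Ifitm1, a membrane protein that blocks virus entry, had the largest rise, from 69.8 to 156 (log2 fold change 1.16), whereas its relatives Ifitm2 and Ifitm3 had -0.02 and 0.05. Tap1, the peptide transporter of antigen presentation, went from 276 to 435 (0.66), Plscr1 from 373 to 575 (0.63), B2m from 5323 to 6155 (0.21) and Zc3hav1, which binds viral RNA, from 698 to 899 (0.36). H2-D1, a class I antigen gene with near-identical relatives, fell from 2052 to 857 (-1.26), and Ly6e (-0.27), Apol9b (-0.86) and Slfn9 (-0.47) fell too in the authors' deposited table. Of 16 low genes of this list with recovered reads, none had more in both knockout libraries and 3 had fewer. The background was 22.1% higher and 16.3% lower. The 3 were Phf11d (19 and 17 reads in control cells against 6 and 6), Slfn8 (26 and 27 against 16 and 17) and Sp110 (17 and 15 against 13 and 8), and none was called. Reads of 3 others, picked after their values were seen, overlapped between the genotypes. The chemokine gene Cxcl10 had 6 and 0 reads against 3 and 0, Cmpk2 had 2 and 6 against 4 and 2, and Rtp4 15 and 12 against 15 and 18. The 10 GTPase genes of the IRG family, the other interferon-induced GTPases of the mouse, had no call by the authors' DESeq2 test and 0 with an unadjusted p under 0.05. Irgm1, the most abundant, had 382 and 441, and Iigp1 had 4 and 12 against 6 and 6 reads.

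**Figure D5:**
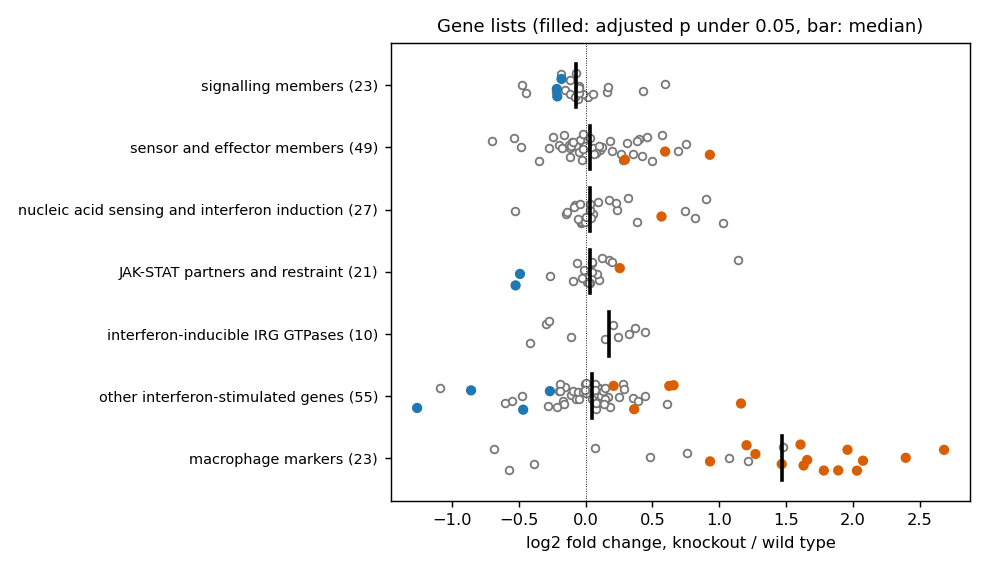
Log2 fold change of every gene in 7 groups, with filled points for an adjusted p under 0.05 (orange higher, blue lower in knockout) and a bar at the median. The interferon groups centre near 0, with medians from -0.07 to 0.18, while the macrophage markers centre at 1.47.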

How the data were processed

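The 4 RNA libraries were compared, and the 4 ATAC-seq libraries were not analysed here. Per the labels' protocols each RNA library gave about 4.62 Gb of sequence. The submitters' processing notes name HISAT2, Bowtie2, RSEM, DESeq2 and mm10. Roles and settings of these tools are not stated there. Here, the deposited table holds a normalised read signal with 1 value per genotype, a log2 fold change that the authors deposited, and the authors' deposited p-value with its adjustment over all 17441 genes. The log2 ratio of the deposited signal columns equals the deposited fold change. A gene was called at a deposited adjusted p under 0.05. Standard errors were implied from the deposited log2 fold change and p-value.

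Reads per library were recovered from the mean of the columns, in which 1 read of a given library always adds the same amount. At a mean under 50, each of the 6126 genes had exactly 1 matching set of reads within 6e-09. As a control, 0%, 0.333% and 4.67% of decoy values matched at means up to 15, 30 and 50. The wild-type libraries had size factors of 1.01 and 0.935, and those of both knockout libraries were 1.03. Chi-square tests found differences between libraries of the same genotype (p = 2.7e-11 and 1.78e-15), so the exact binomial intervals, which cover counting error only, are too narrow. Log2 recovered reads per size factor plus 0.5 were tested with limma 3.58.1 in R 4.3.3. Genes with a mean under 10 were left out of that fit, contrary to the plan, because the fit over all recovered genes failed when tested on simulated data.

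Members and lists were chosen with earlier results of these data known. Every member could be named, except that results of 2 are not reported here, although the counts include them. Of other lists up to 4 called genes were to be named, and further genes were picked after their values were seen. Gene identifiers of all 72 members matched RefSeq (GRCm38.p6, the assembly also called mm10).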

Additional observations from a re-analysis of the deposited data

How the results depend on the processing

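The count of 6 interferon genes called was 2 at an adjusted p under 0.01 (Ifi202b and Gbp2) and 0 at an adjusted p under 0.05 with a 2-fold change (authors' DESeq2 test, 9 members with an unadjusted p under 0.05). It was between 5 and 7 at an adjusted p under 0.1, with filters on low values and with centred fold changes, 7 with members taken by RefSeq symbol, and 9 with Gbp2b and Mndal also added, both chosen after seeing the data. Ifi202b, Gbp2, Ifi30, Stat3 and Stat6 kept their calls at the median filter and after centring, a shift of -0.01. The median log2 fold change of the members ran from -0.05 to -0.01 over its settings. By limma on recovered reads, 1 of 15 low members was called at either pseudocount, and 0 with any 1 library left out (0 to 0 over the 4 libraries, with 1 to 4 at an unadjusted p under 0.05). There the lone library of a genotype is assumed to vary like the others. No paired analysis was possible because the table's columns and the recovered libraries carry no replicate numbers. Tests on counts of all genes per library (edgeR and its alternatives) were not run. Depth limits the 38 members with a mean under 50, whose implied error had a median of 0.44 on the log2 scale, against 0.14 in the other 34.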

Other observations

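Annotation terms that the deposited table itself carries give the response from another side, and no test of the terms was made. Of 24 genes annotated to the cellular response to interferon beta that are no member, 1 rose and none fell in the authors' DESeq2 comparison (4.17%, background 7.78%). The gene that rose was Gbp2b. Of 46 such genes for interferon gamma, 4 rose and 3 fell (15.2%, background 7.78%). The rises included the antigen genes H2-Q8 (82.1 to 167) and H2-Ab1 (117 to 197) and the chemokine gene Ccl9 (72.1 to 130.5), and the falls were Ccl7, Cx3cl1 and Syncrip. Of 106 genes annotated to defense against viruses outside the members, 8 rose and 3 fell (10.4%, background 7.78%), with a median log2 fold change of 0.03.

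The NF-kB response, another innate programme, had 6 falls and no rise among 17 genes in the authors' DESeq2 comparison (35.3%, background of falls 4.3%), with a median log2 fold change of -0.13.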
